A study of Homo sapiens with 4 samples.

Results

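A set of 9 genes of the BRCA and homologous recombination pathway (BRCA1, BRCA2, PALB2, BARD1, BRIP1, ATM, ATR, CHEK1 and CHEK2) was followed through a pair of protein-RNA binding maps of MDA-MB-231, an established human triple-negative breast cancer cell line. The maps came from cells grown in culture, with 2 samples for HNRNPC, a nuclear protein that binds U-rich RNA, and 2 samples for PABPC4, which binds poly(A) and shuttles between cytoplasm and nucleus. Both used cross-linking with ultraviolet light (400 mJ per square centimetre at 254 nm) and immunoprecipitation, by irCLIP for HNRNPC and by PAPERCLIP, which primes at poly(A) tails and so marks RNA 3′ ends, for PABPC4. The file name of the HNRNPC list gives HITS-CLIP, another form of the method, and which of the methods made the list was not settled here. The samples of each protein had been pooled into 1 peak list, which leaves no replicate error for any value and allows no test across samples. A member peak was any listed position, counted once, that carried the gene ID of one of the genes. This gave 9 of 9107 HNRNPC peaks and 90 of 63507 PABPC4 peaks. Peak height counts the unique tags, pooled over both samples, at a peak's summit. It rises with both the amount of an RNA and the binding to it, and these cannot be told apart here, since no measure of RNA level was used. All intervals are 95% intervals that cover counting error only.

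Homologous recombination repairs a broken chromosome by copying the intact sister. ATM and ATR are kinases that sense breaks and stalled forks, and CHEK1 and CHEK2 are the checkpoint kinases they switch on. BRCA1 works with its partner BARD1 in preparing the broken ends, the helicase BRIP1 binds BRCA1, and PALB2 links BRCA1 to BRCA2, which acts at the strand-exchange step. Inherited loss of several of these genes raises the risk of breast cancer. HNRNPC is known to bind the U tracts that Alu elements provide when they lie in introns antisense to the gene, and to keep such elements from being spliced in as exons.

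The genes lie, on hg38, at chr17:43044295-43170245 (BRCA1, minus strand), chr13:32315086-32400268 (BRCA2, plus), chr16:23603160-23641321 (PALB2, minus), chr2:214725646-214809683 (BARD1, minus) and chr17:61679139-61863559 (BRIP1, minus). The kinase genes lie at chr11:108223044-108369102 (ATM, plus), chr3:142449007-142578733 (ATR, minus), chr11:125625163-125676255 (CHEK1, plus) and chr22:28687743-28742422 (CHEK2, minus). Their spans in the RefSeq table run from 38.1 kb (PALB2) to 184 kb (BRIP1), 903 kb in all, and their canonical transcripts have between 11 exons (BARD1) and 63 exons (ATM).

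HNRNPC peaks were present in 6 of the 9 genes. Sequence at the tallest HNRNPC peak is shown for BRCA1, PALB2, BARD1, ATM and CHEK2, read from hg38 on the strand of the gene, 5′ to 3′. For BARD1, ATM and CHEK2 it holds the whole peak and the 50 nt upstream. Capitals mark runs of 5 or more T (U in the RNA) and the 6-mer GTGTCA, which is frequent at the 3′ ends of peaks in the HNRNPC list. For BRCA1 and PALB2, where the peak lies in an untranslated exon of another transcript, only 30 nt are shown. The BRCA1 stretch, chr17:43121667-43121696, lies wholly upstream of the peak, holds none of it, and ends with the first bases of that exon. The PALB2 stretch, chr16:23640418-23640447, lies mostly upstream of the peak and runs into its 5′ end. The others are chr2:214806344-214806534 (BARD1), chr11:108258056-108258182 (ATM) and chr22:28736414-28736550 (CHEK2).
BRCA1: TTTTTTTTTTTTTgagacagactttggctc
PALB2: actgcaacctccgcttcctgggatcaagcg
BARD1: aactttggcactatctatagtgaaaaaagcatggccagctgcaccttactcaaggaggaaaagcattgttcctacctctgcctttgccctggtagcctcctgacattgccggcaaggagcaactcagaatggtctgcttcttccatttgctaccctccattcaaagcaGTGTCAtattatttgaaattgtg
ATM: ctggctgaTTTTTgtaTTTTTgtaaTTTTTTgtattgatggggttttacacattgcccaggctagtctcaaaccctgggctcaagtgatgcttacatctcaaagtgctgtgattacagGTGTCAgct
CHEK2: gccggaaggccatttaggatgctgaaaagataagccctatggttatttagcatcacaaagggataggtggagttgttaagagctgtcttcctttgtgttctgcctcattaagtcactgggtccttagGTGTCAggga
The BRCA1, PALB2 and ATM stretches are antisense Alu sequence, and those of BARD1 and CHEK2 are not.

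The share of genes with an HNRNPC peak, 6 of 9, stands beside 19.0% of all 20037 protein-coding genes and 31.4% of the 7840 genes of 30 to 250 kb, the range that holds all the members. Long genes collect more peaks, and no test of the members against other genes was made, since they were chosen with results of these data known. Per length, the members had 0.996 HNRNPC peaks per 100 kb (Poisson interval 0.456 to 1.89), against 0.725 over all protein-coding genes together and 0.839 over those of 30 to 250 kb. Both of these values lie inside the members' interval. No HNRNPC peak was listed for BRCA2, ATR or CHEK1. A gene with no listed peak may still be bound below the height that peak calling required.

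**Figure D1:**
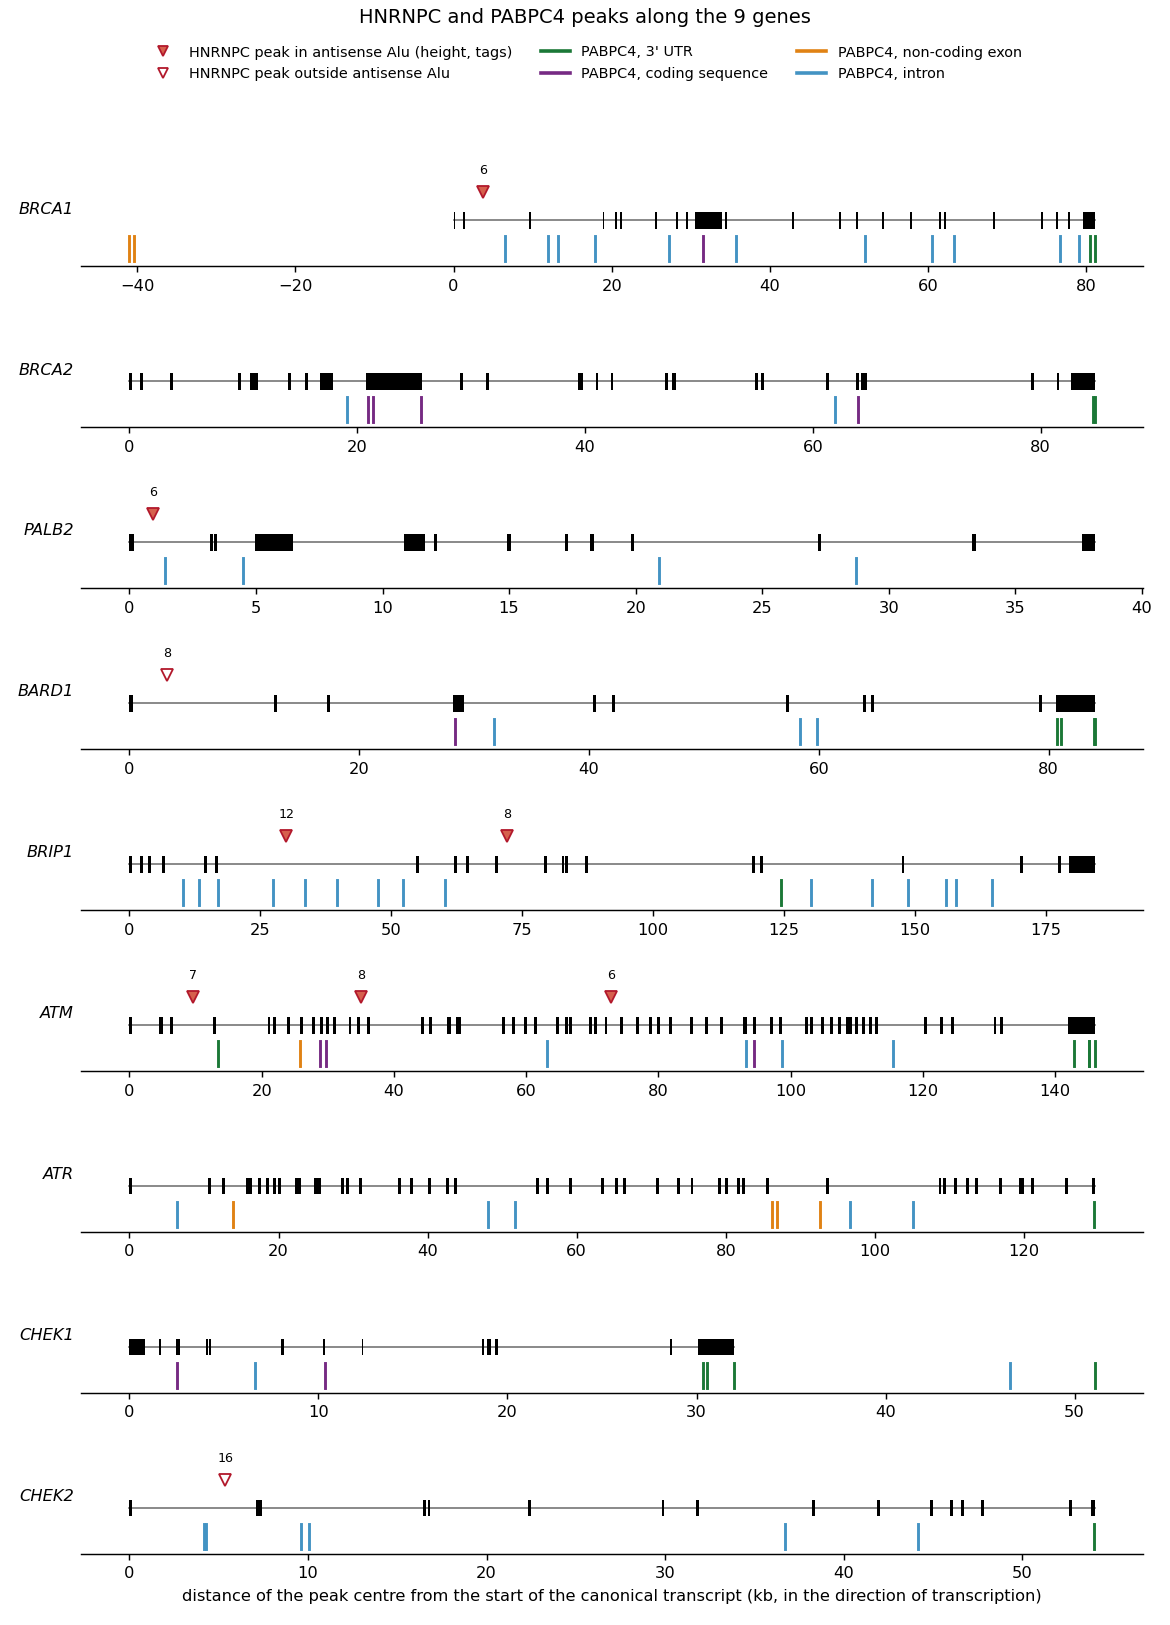
Each row is a gene, with the exons of its canonical transcript as black boxes (short exons widened to be visible) and the distance from the start of that transcript in kb. Triangles mark the 9 HNRNPC peaks with their height in tags, filled where the peak is in antisense Alu (7 of 9), and ticks below the line mark the 90 PABPC4 peaks, coloured by annotation.

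Among the BRCA1 group, BRCA1 had 1 HNRNPC peak, 6 tags high (Poisson interval 2.2 to 13.1), in intron 2 of the canonical transcript and 3.76 kb from its start. PALB2 had 1 peak of 6 tags in intron 1, 0.921 kb from its start. BARD1 had 1 peak of 8 tags (3.45 to 15.8) in intron 1, 3.27 kb from its start. These 3 peaks lay near the 5′ ends of their genes, as the map of the genes shows. BRIP1 had 2 peaks, one of 12 tags (6.2 to 21) in intron 6 and one of 8 tags in intron 10, at 29.9 and 72.1 kb.

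Among the kinases, ATM had the most HNRNPC peaks of the members, 3, with 7 tags in intron 4, 8 tags in intron 15 and 6 tags in intron 32. The peak of 6 tags in ATM had the highest p-value that the authors' peak caller gave to a member, 0.0866. CHEK2 had 1 peak of 16 tags (9.15 to 26) in intron 1, the tallest HNRNPC peak in these genes. The counting intervals of all 9 peaks overlap one another, so the order of their heights is not settled by these tags.

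All 9 HNRNPC peaks had their centre in an intron of the canonical transcript, and none of them lay in coding sequence or in the terminal exon of the canonical transcript. They were low for this list. Their median height was 8 tags, against 11 tags over all HNRNPC peaks, and 2 of 9 (those of CHEK2 and BRIP1) reached the list median. The tallest HNRNPC peak of the whole list had 629 tags.

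**Figure D2:**
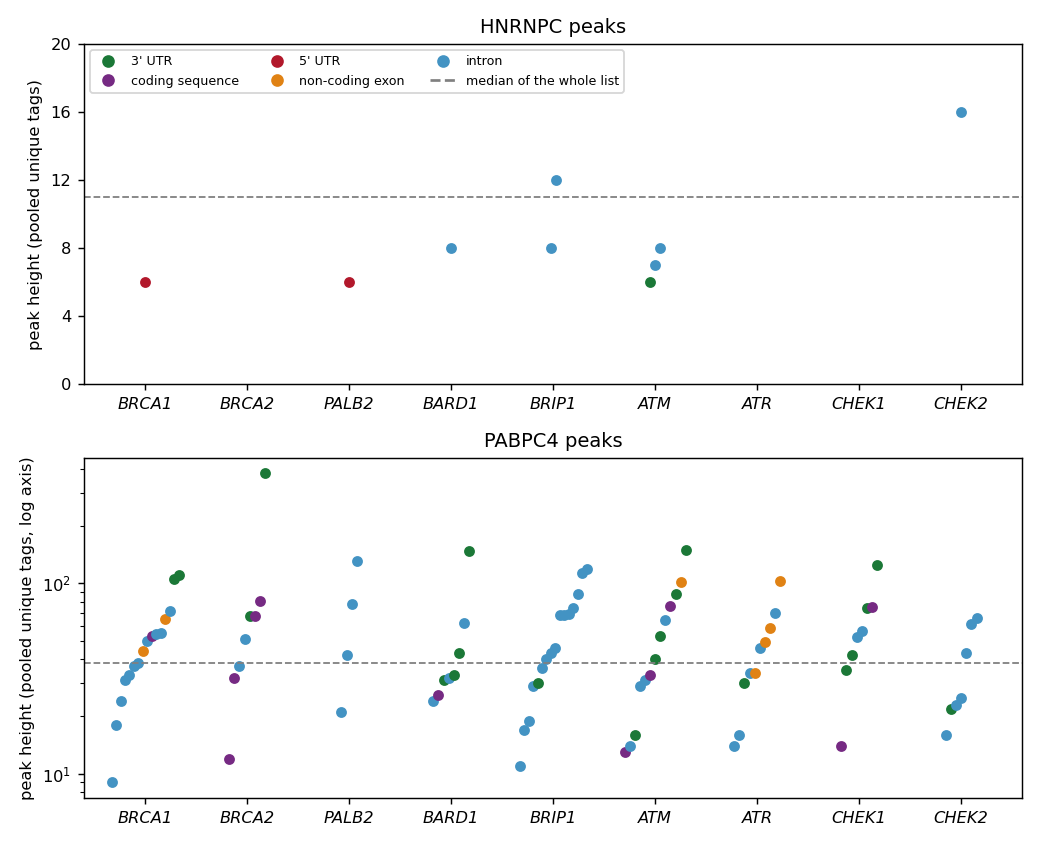
Height in pooled unique tags of every HNRNPC peak (upper panel) and PABPC4 peak (lower panel, log axis) of the 9 genes, coloured by annotation and set side by side within a gene in order of height. The dashed lines are the list medians, 11 tags for HNRNPC and 38 tags for PABPC4; 2 of 9 HNRNPC peaks and 52 of 90 PABPC4 peaks reach them.

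Alu sequence was called by comparing each peak and 100 nt on both sides with a consensus built from the genome itself. Antisense Alu was found at 7 of the 9 HNRNPC peaks (77.8%, Wilson interval 45.26% to 93.68%), against 37.71% of the whole HNRNPC list and 39.81% of its intron peaks. Sense Alu was found at 0 of 9 peaks and at 1.987% of the list. The Alu peaks were those of BRCA1, PALB2, BRIP1 (both) and ATM (all 3), so 3 of the 7 come from 1 gene. Without the ATM peaks, a set chosen after seeing the data, the share was 66.7%. These peaks fell at few of the elements on offer. The members hold 327 antisense Alu elements, and 7 of these had an HNRNPC peak. CHEK1, with 26 antisense elements, ATR with 39 and BRCA2 with 26 had none.

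Within the element, 5 of the 7 Alu peaks took up much the same place. On the consensus the 5′ edges of the peaks in BRCA1, PALB2, BRIP1 and intron 4 of ATM lay at positions 246, 210, 234, 233 and 245, and their 3′ edges at 162, 148, 150, 171 and 184. The other ATM peaks began at 91 and 112 and ended at 14 and 2, in the other arm of the element. Over the 3125 peaks of the list that overlap an antisense Alu match, the 5′ edge had a median position of 217 (quartiles 104 and 265) and the 3′ edge a median of 120 (quartiles 12 and 163).

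U tracts lay upstream of some of these peaks and inside none of them. At least 5 U in a row fell within the peak or the 50 nt upstream at 4 of 9 member peaks (44.4%, interval 18.88% to 73.33%), in BRCA1 and at the 3 ATM peaks, against 39.72% of the list. This share was 16.7% where the p-value had to be 0.001 or lower, and 0% among member peaks at or above the list's median height. Inside the peak there was such a run at 0 of 9 member peaks and 13.26% of the list. A longer reach was added after seeing the data. In BRIP1 runs of 16 and 22 U ended 50 and 49 nt before the peaks, at the limit of the first window, and so had not been counted. A run of 25 U ended 37 nt before the BRCA1 peak and one of 30 U ended 38 nt before the peak in intron 4 of ATM. Of the 7 Alu peaks of the members, 5 had a run of at least 8 U that ended no more than 50 nt upstream (71.43%, 35.89% to 91.78%), against 25.33% of the 3434 antisense Alu peaks of the list. This limit was set with the members' values seen, and the BRIP1 runs lie at its edge. Within 300 nt upstream the shares were 6 of 7 (85.71%, 48.69% to 97.43%) and 58.24%, which lies inside the members' interval. PALB2 had a run of 6 U ending 73 nt upstream. The peaks of BARD1 and CHEK2, outside Alu, had no run of 5 U nearer than 227 and 283 nt.

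The 6-mer GUGUCA lay within 15 nt of the 3′ end at 4 of 9 HNRNPC peaks, those of BARD1, CHEK2 and 2 in ATM, against 37.92% of the HNRNPC list and 0.4771% of the PABPC4 list. Both peaks outside Alu carried it, and so did 2 of the 7 Alu peaks. Its part in the calling of these peaks was not tested. In the printed sequences of ATM and CHEK2 it is the copy in capitals. In BARD1 the counted copy spans the 3′ edge of the peak, so that only its first bases (gtg) are printed, and the copy in capitals lies further upstream.

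Although all 9 HNRNPC peaks were intronic in the canonical transcript, 3 had their centre in an exon of another GENCODE transcript. The BRCA1 peak lay whole within chr17:43121558-43121676, the third of 24 exons of a protein-coding transcript, a 119-nt untranslated exon that is antisense Alu over its full length. The run of 25 U ended 7 nt before the first base of this exon, and the bases next to the exon were AG, the usual end of an intron. The printed BRCA1 stretch shows the last 13 U of the run, this AG and the start of the exon. In PALB2 the peak lay whole within chr16:23640252-23640496, a 245-nt exon of the 5′ UTR of a protein-coding transcript, of which 52.7% was antisense Alu. A run of 6 U ended 7 nt before that exon, which AG also preceded. A shorter form of the exon, chr16:23640252-23640402, held 56 of the 84 nt of the peak. A pair of further PALB2 transcripts hold the whole peak in a long first exon, of 1053 and 1025 nt, of which 13.5% and 13.9% was antisense Alu. In ATM the peak of intron 32 lay within chr11:108294927-108295996, the last exon of a short protein-coding transcript, of which 54.2% was antisense Alu. Of the 3434 antisense Alu peaks in the whole list, 9.552% (8.613% to 10.58%) had their centre in any annotated exon. Whether these exons were used in the cells was not measured.

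**Figure D3:**
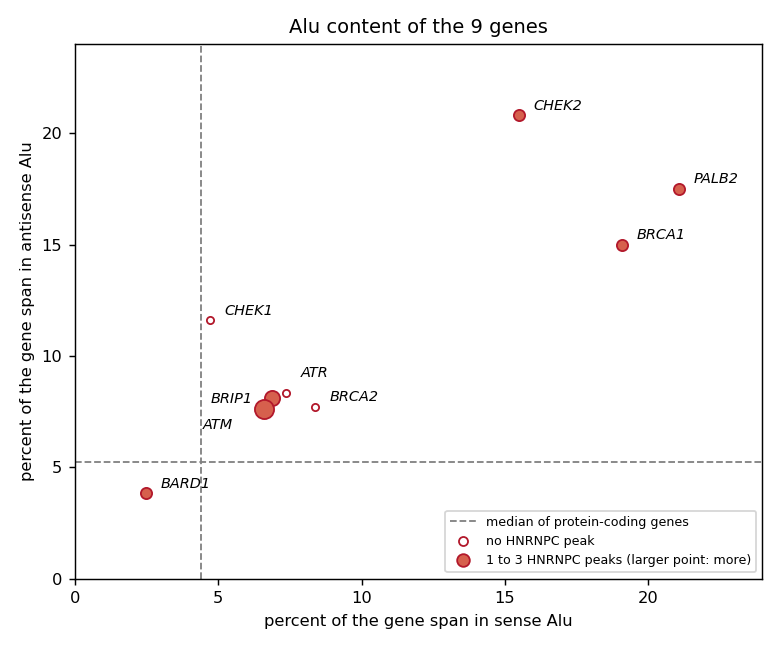
Percent of each gene's span in sense Alu (horizontal axis) and antisense Alu (vertical axis), with a larger point for more HNRNPC peaks and an open point for none. The dashed lines are the medians of protein-coding genes, 4.38% sense and 5.25% antisense; 8 of 9 members lie above both, and BARD1 lies below both.

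The members' median Alu cover was above that of protein-coding genes in both orientations. Antisense Alu took up a median of 8.33% of their spans (3.84% in BARD1 to 20.8% in CHEK2), against a median of 5.25% over 19153 protein-coding genes and 7% over genes of 30 to 250 kb. Sense Alu took up a median of 7.37%, against 4.38% and 5.54%. CHEK2 at 20.8%, PALB2 at 17.5% and BRCA1 at 15% had the highest antisense cover. By this cover ATM, BRCA2, BRIP1 and ATR lay between the percentiles 63.1 and 66.4 of protein-coding genes. The plot of Alu cover shows no order of HNRNPC peaks by it. BARD1, with the lowest cover, had a peak, CHEK1 with 11.6% had none, and the CHEK2 peak lay outside Alu.

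PABPC4 peaks were found in all 9 genes, where 59.2% of all protein-coding genes and 73.8% of those of 30 to 250 kb had one. There were 16 in BRCA1, 8 in BRCA2, 4 in PALB2, 8 in BARD1, 16 in BRIP1, 13 in ATM, 10 in ATR, 8 in CHEK1 and 7 in CHEK2. Per length this came to 9.96 per 100 kb (8.01 to 12.2), against 5.02 over all protein-coding genes together and 5.74 over those of 30 to 250 kb, both below the interval. Peaks of 1 gene share their RNA and are not independent, which this interval leaves out. The values for other genes include those with no PABPC4 peak. Single genes ran from 7.72 per 100 kb in ATR to 14.3 in CHEK1. Of all protein-coding genes, 35.9% were at least as dense as ATR and 21.6% at least as dense as CHEK1. Heights ran from 9 to 379 tags with a median of 43, near the list median of 38 tags.

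**Figure D4:**
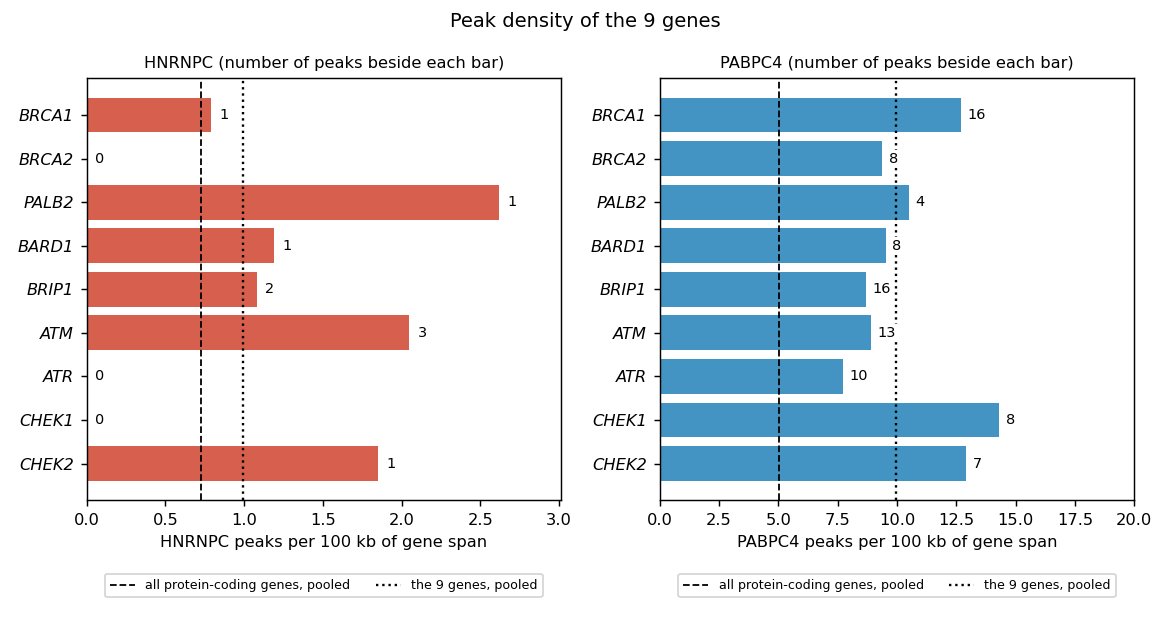
Peaks per 100 kb of gene span for each gene, HNRNPC on the left and PABPC4 on the right, with the number of peaks beside each bar. The dashed lines mark all protein-coding genes together (0.725 and 5.02) and the dotted lines the 9 genes together (0.996 and 9.96). Every PABPC4 bar lies beyond its dashed line, as do many other genes (35.9% of all are at least as dense as ATR), while 3 genes have no HNRNPC bar.

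To see which PABPC4 peaks mark RNA 3′ ends, the peak at or nearest to an annotated end was taken in each gene. The 30 nt up to its 3′ edge are printed here on the gene's strand, 5′ to 3′, with the poly(A) signals AATAAA and ATTAAA in capitals. The peaks of BRIP1 (25 nt) and ATM (27 nt) are shorter, so their stretches begin upstream of the peak. They are chr17:43044302-43044331 (BRCA1), chr13:32400237-32400266 (BRCA2), chr16:23636799-23636828 (PALB2), chr2:214728550-214728579 (BARD1), chr17:61739067-61739096 (BRIP1), chr11:108236504-108236533 (ATM), chr3:142449241-142449270 (ATR), chr11:125657116-125657145 (CHEK1) and chr22:28687796-28687825 (CHEK2).
BRCA1: ttaacactgcaAATAAActtggtagcaaac
BRCA2: taaagccaagAATAAAtcttttaaaaaatt
PALB2: tgttATTAAAattacttgagccaaggggga
BARD1: agagtcattcatatttgtctttgaatcaaa
BRIP1: caatatcttAATAAAatacaattttgttcc
ATM: tccatgacagagtgagaccctgtttccatt
ATR: ttcagttattaagaAATAAActgctttctt
CHEK1: aaAATAAAaatgtgtaaaatttactacctg
CHEK2: tttttatagtttgtattttaattatgggaa
Of these, 6 hold a signal: BRCA1, BRCA2, BRIP1, ATR and CHEK1 close to an annotated end, and PALB2 in an intron, 764 nt short of the nearest end. The stretches of BARD1 and ATM hold none, but each of these genes had another peak, with AATAAA, at its canonical end.

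A PABPC4 peak within 50 nt of an annotated transcript end was found in 8 of 9 genes, all but PALB2, where 42.2% of protein-coding genes had one. The members have from 8 (BRCA2) to 38 (ATM) annotated ends, and more ends give more places to count. The 42.2% is matched neither for the number of ends nor for length. At the end of the canonical transcript there was a peak in 6 of 9 genes, where 32.2% of 19153 protein-coding genes had one. BRCA2 had by far the tallest of these, 379 tags, followed by CHEK1 with 125 and BRCA1 with 105. BARD1 had 43, ATM 40 and ATR 30 tags. Heights are not levels of the mRNA, and the spread between samples is unknown. The CHEK2 peak, of 22 tags, ended 53 nt from the canonical end, just outside the limit, and 30 nt from the end of another transcript. It preceded an A-rich stretch and had no poly(A) signal.

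In 4 genes more than 1 peak lay at an annotated end. BRCA1 had a peak of 111 tags within its canonical terminal exon, 18 nt from an annotated end, with sense Alu and an A-rich stretch after it, beside the 105 tags at the canonical end. BARD1 had 147 tags at an end inside its terminal exon, well before the canonical end, with an A-rich stretch after it and no poly(A) signal. At its canonical end lay a peak of 43 tags, with AATAAA and no A-rich stretch, and one of 33 tags before an A-rich stretch. CHEK1 had 74 tags at a distal end, 51.1 kb from the start, beyond the canonical end, which had 125 tags at 32 kb. ATM had peaks of 16, 102 and 88 tags at annotated ends before the canonical end, each in sense Alu and followed by an A-rich stretch, and 40 tags with the signal AATAAA and no A-rich stretch at the canonical end. The tallest ATM peak, of 150 tags, lay in the terminal exon, 249 nt from the nearest annotated end. It overlapped antisense Alu and held a run of at least 5 U. Sense Alu was also found at this peak or within 100 nt of it, and no A-rich stretch followed. CHEK1 also had 42 and 35 tags near annotated ends within its terminal exon.

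BRIP1 and PALB2 had no PABPC4 peak at the canonical end. The nearest in BRIP1 ended 19582 nt away from it, and the nearest in PALB2 9402 nt away. BRIP1 had instead a peak of 30 tags in canonical intron 16, 10 nt from the end of a shorter annotated transcript, with AATAAA and without an A-rich stretch or Alu. All 4 PALB2 peaks, of 42, 78, 131 and 21 tags, were intronic and followed by an A-rich stretch. A lower peak of 8 tags in the span of PALB2 was listed under the microRNA genes MIR3680-1 and MIR3680-2 alone, and is not counted. The HNRNPC peak and the 4 PABPC4 peaks of PALB2 were listed under those IDs as well.

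**Figure D5:**
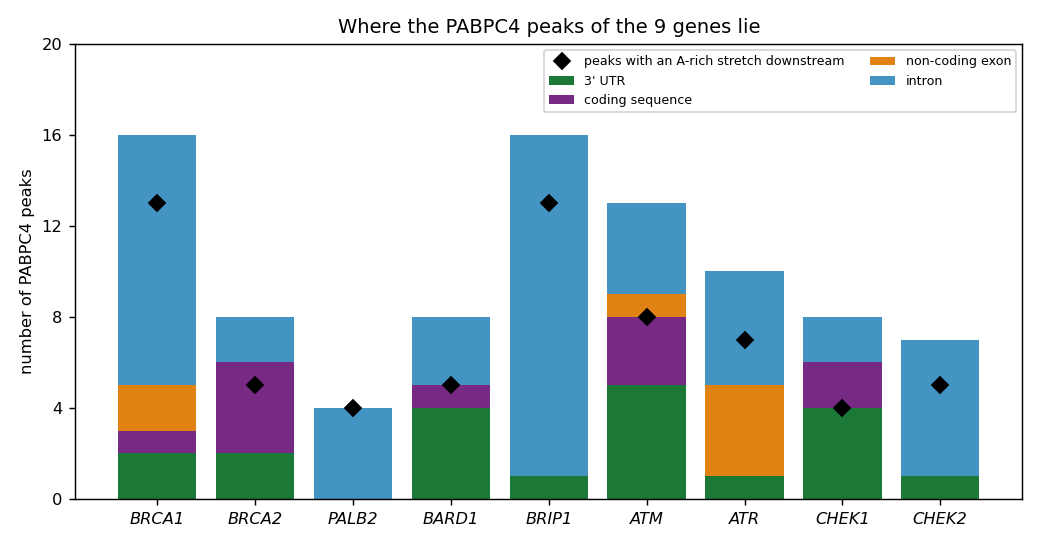
Number of PABPC4 peaks in each of the 9 genes, stacked by where the centre lies; black diamonds give the number of all peaks of the gene that precede an A-rich stretch. BRIP1 has 15 of 16 peaks in introns and PALB2 4 of 4, while BARD1 and CHEK1 have 4 of 8 in the 3′ UTR.

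Most member PABPC4 peaks were in introns, 52 of 90 (57.8%, interval 47.46% to 67.46%), against 60.23% of the list. The 3′ UTR held 20 (22.22% against 29.78%), coding sequence 11 (12.22%, 6.964% to 20.57%, against 5.044%) and exons of non-coding transcripts 7. Of the 11, BRCA2 held 4 and ATM 3. Peaks of the same gene are not independent, which the intervals of these shares leave out. Priming can also start at stretches of A in the genome, so an A-rich stretch was looked for in the 50 nt downstream of each peak (a run of 6 A, or at least 7 A among 10 nt). It followed 40 of the 52 intron peaks (76.9%, 63.87% to 86.28%), against 71.24% of the list's intron peaks. Sense Alu, which ends in an A tail, was found at 39 of 52 (75%, 61.79% to 84.77%), against 59.58%. Every one of the 52 had one or the other, against 90.09% of the list's. A poly(A) signal within the 40 nt up to the 3′ edge was present at 2 of 52 (3.846%, against 6.398%), 1 in PALB2 and 1 in BRIP1, both before an A-rich stretch. Of the members' 296 sense Alu elements, 45 had a PABPC4 peak on or within 100 nt of them.

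In coding sequence, 9 of 11 member peaks preceded an A-rich stretch (81.8%, 52.3% to 94.86%, against 61.97% of the list's), and none had a poly(A) signal or sense Alu. BRCA2 had 4 of the 11, with 81, 67 and 12 tags in exon 11, its largest exon, and 32 tags in exon 22. All 4 preceded an A-rich stretch. ATM had 3, with 76 tags in exon 11, 13 in exon 12 and 33 in exon 43. CHEK1 had 75 tags in exon 3 and 14 in exon 7, BRCA1 had 53 tags in its exon 10 and BARD1 26 in exon 4.

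Of the 17 member peaks at annotated ends, 9 had a poly(A) signal (52.94%, 30.96% to 73.83%, against 62.54% of the list's end peaks), and 9 preceded an A-rich stretch (52.94%, against 28.52%). How much of the height at these ends came from the genome's own A stretches was not tested. Of the 12 member peaks with a poly(A) signal, 9 were at an annotated end. BRIP1 and PALB2 held 96.6% and 100% of their summed peak height in introns, CHEK2 held 91.4%, and BRCA2 held 12.1%.

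No HNRNPC peak of the members overlapped a PABPC4 peak. Measured from centre to centre, the PABPC4 peak of the same gene nearest to each HNRNPC peak lay between 467 nt (PALB2) and 25110 nt (BARD1) away. The median distance was 3893 nt. Peaks on the other strand of the same spans belong to neighbours. In the span of BRCA1, 2 HNRNPC and 5 PABPC4 peaks lay on the opposite strand, the strand of NBR2, and in that of ATM 1 PABPC4 peak, on the strand of C11orf65. The PABPC4 peaks of 65 and 44 tags far upstream of the canonical BRCA1 start were also listed under a further gene ID.

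A wider list of 86 genes of break repair and checkpoint signalling, set down with earlier results of these data known, was read in the same way. All 86 matched a gene ID. HNRNPC peaks were listed for 41 (47.7%, beside the 19.0% of all protein-coding genes), with 79 peaks, and for 29 of the 53 genes of 30 to 250 kb (beside 31.4%). PABPC4 peaks were listed for 80 (beside 59.2%), with 575 peaks, and 60 had one at an annotated end (beside 42.2%). As examples by role, which do not add up to the whole list, HNRNPC peaks were listed for 5 of 9 genes of end resection and sensing and for 6 of 13 of helicases and junction processing. They were listed for 6 of 14 Fanconi anaemia genes, 4 of 7 of the BRCA1 complexes, 1 of 7 of the chromatin response, 7 of 15 of checkpoint signalling and 6 of 10 of other break repair.

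Single genes are given here as examples with many peaks and not as a ranking of the wider list. FANCA, a subunit of the Fanconi core complex, had 8 in 79.1 kb. FAAP100, another core subunit, had 4, as did XRCC5, which encodes the Ku80 end-binding protein, and FANCI had 3. No member reached 4. For PABPC4, SLX1A had 32 peaks, PRKDC, the DNA-dependent protein kinase, had 26 and BABAM2 had 25. Counts by gene ID are uncertain for SLX1A, which has a near-identical copy. None of its 32 peaks lay in its own span, and all were listed under further IDs. For BABAM2 20 of 25 lay in the span. Nearest to the members' median in peaks per 100 kb of both lists were CDK12, a kinase needed for the transcription of repair genes, with 0.943 HNRNPC and 9.43 PABPC4 peaks, the Fanconi ubiquitin ligase FANCL with 1.22 and 8.52, and RPA1, a subunit of the single-strand binding protein, with 1.43 and 9.99.

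The cell line was checked by PABPC4 peaks at any place in marker genes, not only at RNA 3′ ends. All 7 markers of a mesenchymal breast line had a PABPC4 peak, with tallest peaks from 244 tags (TGFBI) to 10197 tags (VIM). Of 7 luminal markers, 5 had one, with tallest peaks from 7 tags (ESR1) to 108 tags (GATA3), and PGR and FOXA1 had none. The 4 leukocyte markers had none. Over all protein-coding genes 59.2% had a PABPC4 peak, so the presence of a peak in a luminal marker says little by itself. The tallest member peak, that of BRCA2 with 379 tags, was within the range of the mesenchymal markers.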

How the data were processed

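The members and gene lists were chosen with earlier results of these data known. For HNRNPC, the authors collapsed reads by molecular identifier (UMI-tools), trimmed them at a quality of 15 (cutadapt), aligned them to hg38 with BWA 0.7.17, removed duplicates, pooled both samples and used the CLIP Tool Kit for peak calling. How the PABPC4 list was made is not given separately in the sources used here; its layout is the same. The deposited signal is the peak height in pooled unique tags, not scaled to depth. The peak p-values are the authors'. Library depth is unknown here, and a count of 9 peaks limits every share.

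A position listed more than once was used once, at the lowest of its p-values. Genes, spans and symbols came from GENCODE 44 and the RefSeq table of GRCh38. The strand-matched annotation at the peak centre set its class, with 3′ UTR taking priority over coding sequence, then 5′ UTR, non-coding exon and intron. Alu elements were found with BLAST 2.17.0 at an E-value of 1e-05 against a consensus of 291 nt aligned with MAFFT 7.526 from copies in the genome. Alu and motif searches were tested on simulated data. Intervals were Wilson or Poisson (scipy 1.17.1), and bedtools 2.31.1 made the overlaps. Named besides the members, except for items not reported here, were the 5 pathway genes with the most peaks in each list and the 3 nearest to the members in peaks per 100 kb. Alternatives were stricter p-values, taller peaks, other windows and counting by position.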

Additional observations from a re-analysis of the deposited data

How the results depend on the processing

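No paired analysis was possible because both samples of each protein were pooled before peak calling, and leaving out a sample was not possible for the same reason. Of 37 recalculations of 8 results, 27 stayed within 1.5 times the count or within the counting interval. With peaks at or above the list's median height, the 9 HNRNPC peaks became 2, in 2 genes, or 0.221 per 100 kb, 0% of them had a U run, the 90 PABPC4 peaks became 52, and genes with an annotated 3′ end peak became 5. At a p-value of at most 0.001 the U run share was 16.7%, and counted only inside the peak it was 0%. With runs of at least 8 U ending within 50 or 300 nt upstream, chosen after seeing the data, it was 55.6% and 66.7%. Without peaks ending in GUGUCA, chosen after seeing the data, 5 HNRNPC peaks were left. With the A-rich stretch sought within 20 nt, its share among intron peaks was 55.8%. The antisense Alu share ran from 50% (2 peaks) to 77.8%. With 9 HNRNPC peaks of 6 to 16 tags, depth limits every HNRNPC statement here.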
